A study of Mus musculus with 18 samples.

Results

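The AP-1 family and Atf3 were followed here as 10 genes, taken by symbol from the 30530 genes of the count table: Fos, Fosb, Fosl1, Fosl2, Jun, Junb, Jund, Atf3, Batf and Maff. All 10 were found once each, and all 10 passed the filter on low counts that left 12741 genes for testing. The values are read counts from RNA-seq of macrophages, the phagocytes of innate immunity, differentiated in the dish from bone marrow of mice, with polyadenylated RNA as input. The question of the design was how 25-hydroxycholesterol (25HC), an oxysterol that macrophages make with the enzyme encoded by Ch25h, alters the response to Pam3CSK4 (PAM3), a lipopeptide ligand that mimics bacterial lipoproteins and signals through Toll-like receptor 2.

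The 6 groups held 3 libraries each, 18 in all. C57BL/6 (B6) cells given 5 µM 25HC for 18 hours and then 300 ng/mL PAM3 are called 25HC plus PAM3. Ch25h-/- cells, which received no 25HC, were given PAM3 or left at rest. B6 cells without 25HC that received PAM3 are called PAM3 alone. B6 cells given 25HC without PAM3 are called 25HC alone, and untreated B6 cells at rest complete the design. The titles of the untreated B6 and Ch25h-/- resting libraries add the words 25-hydroxycholesterol control. Those of PAM3 alone and of Ch25h-/- cells with PAM3 do not. What this control received is not stated in the titles. Replicates 1 to 3 follow the mouse number in the labels, so libraries of 1 genotype that share a number share an animal. The labels give neither the age nor the sex of the mice, and the nature of the Ch25h-/- allele is not described there. The stimulation time is labelled 18 for PAM3 and 0 for rest, with no unit. Whether resting cells were cultured for as long is not stated, so in comparisons of PAM3 with rest the stimulus and a difference in time cannot be told apart.

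AP-1 is not a single protein but a family of dimers built from leucine-zipper proteins. FOS-type proteins (Fos, Fosb, Fosl1, Fosl2) must pair with a JUN-type partner (Jun, Junb, Jund) to bind DNA, while JUN-type proteins can also pair among themselves. ATF3 and BATF pair with JUN proteins and can replace or oppose FOS-type partners, and MAFF is a small MAF protein without a transactivation domain. In macrophages many of these genes are induced within minutes of Toll-like receptor signalling through MAP kinases and then shut off again, and ATF3 is known as a brake on cytokine genes and on Ch25h.

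Total counts per library ranged from 14040513 to 150440297, and replicate 2 was the deepest library of the 25HC plus PAM3 (137473801), PAM3-alone (150440297) and untreated resting B6 (68549136) groups. Levels are given as counts-per-million (CPM) values on TMM-scaled library sizes, and no pair of replicates had the same counts. Ch25h, the targeted gene, had 0.0477, 0.0871 and 0 CPM in Ch25h-/- cells with PAM3 and 3.55, 1.66 and 2.14 CPM in cells with PAM3 alone. At rest it had 0.099, 0 and 0.119 CPM in Ch25h-/- cells and 20.4, 3.16 and 10.2 CPM in untreated B6 cells. The 7 macrophage markers, among them Csf1r and Lyz2, were detected in every group, with summed levels of 18400 to 58000 CPM. This sum was lower with 25HC: 26300 to 32900 CPM in 25HC plus PAM3 and 44400 to 58000 CPM in PAM3 alone. At rest it was 18400 to 20400 CPM in 25HC alone and 24000 to 31200 CPM in untreated B6 cells. The T cell markers Cd3e and Cd3g were at 0 counts throughout. Summed over 4 dendritic cell markers, the level was 4.67 to 5.43 CPM in 25HC plus PAM3 and 1.64 to 2.53 CPM in PAM3 alone, and over 5 B cell markers it was 0.895 to 1.67 CPM in 25HC plus PAM3 and 7.82 to 17.2 CPM in PAM3 alone. The dendritic cell and B cell sums each rested on 1 gene. Ccr7, which activated macrophages can also express, reached 5.19 CPM while the other 3 dendritic cell markers stayed at or under 0.891 CPM. Cd79b reached 23.3 CPM while the other 4 B cell markers stayed at or under 0.343 CPM. The 7 neutrophil markers summed to between 0.456 and 4.92 CPM in 5 groups and to 9.5 to 45.6 CPM in Ch25h-/- cells at rest, where Ltf reached 19.9 CPM and Ngp 23.2 CPM. The part of these marker differences in the results was not tested. In such bulk cultures, more cells with a transcript and more transcript per cell cannot be told apart.

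The promoters of Fos, Jun, Atf3 and Maff are shown because these 4 members carried matches to AP-1 or CRE motifs and were called higher with 25HC at rest. Batf, which also held a match, was not called at rest and was called lower with 25HC in the presence of PAM3. Each window runs 5′ to 3′ on the gene's own strand, from 250 bases before to 50 bases after a RefSeq start site (GRCm38.p6), and capitals mark the motif matches.
Fos, chr12:85473640-85473939, plus strand: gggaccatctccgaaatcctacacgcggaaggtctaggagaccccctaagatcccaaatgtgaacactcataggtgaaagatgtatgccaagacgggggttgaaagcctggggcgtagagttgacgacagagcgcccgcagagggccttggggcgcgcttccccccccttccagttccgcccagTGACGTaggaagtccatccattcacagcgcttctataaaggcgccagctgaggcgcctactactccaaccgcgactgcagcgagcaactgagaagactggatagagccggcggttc
Jun, chr4:95052173-95052472, minus strand: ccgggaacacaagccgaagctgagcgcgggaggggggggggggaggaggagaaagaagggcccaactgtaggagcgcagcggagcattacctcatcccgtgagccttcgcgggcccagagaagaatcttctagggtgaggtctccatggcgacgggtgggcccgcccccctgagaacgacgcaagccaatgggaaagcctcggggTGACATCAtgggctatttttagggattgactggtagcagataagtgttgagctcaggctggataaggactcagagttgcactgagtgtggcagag
Atf3, chr1:191183284-191183583, minus strand: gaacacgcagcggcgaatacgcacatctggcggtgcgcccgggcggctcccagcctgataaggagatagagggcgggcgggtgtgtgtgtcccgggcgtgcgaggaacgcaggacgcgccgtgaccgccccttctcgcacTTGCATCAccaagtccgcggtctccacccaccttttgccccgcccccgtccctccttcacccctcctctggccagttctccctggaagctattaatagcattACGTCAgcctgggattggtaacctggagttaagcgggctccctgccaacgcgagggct
Maff, chr15:79347270-79347569, plus strand: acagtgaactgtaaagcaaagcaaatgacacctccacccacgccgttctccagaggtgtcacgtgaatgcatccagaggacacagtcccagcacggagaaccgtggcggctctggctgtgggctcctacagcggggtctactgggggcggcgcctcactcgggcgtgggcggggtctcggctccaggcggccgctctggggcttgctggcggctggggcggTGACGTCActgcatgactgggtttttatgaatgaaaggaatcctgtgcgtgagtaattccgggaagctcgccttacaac

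Promoter windows were found for 9 of the 10 members, and each motif was searched on both strands. The variant AP-1 site TGACATCA began 45 bases before the start in Jun and 45 bases before another start of Maff, and 3.62% of all 32851 windows of this length held it. The full CRE, TGACGTCA, began 29 bases before the start shown for Maff and was held by 1.79% of windows. Its shorter form TGACGT, which is part of TGACGTCA and so overlaps it in Maff, began 66 bases before the Fos start, 8 bases before the Atf3 start and 98 bases before the Batf start, against 7.51% of windows. A match to TGATGNAA, the core of the ATF4 element, lay 110 bases before the Atf3 start, where capitals show it on the opposite strand, and 3.97% of windows held one. The classical AP-1 site TGACTCA, held by 5.20% of windows, and the CArG box, held by 1.63%, had no match in the members' windows. Sites more than 250 bases before a start lay outside the windows and were not searched. These matches are a description of letters in a window. The Atf3 and Maff starts shown lie inside the annotated gene spans, which begin farther upstream.

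**Figure D1:**
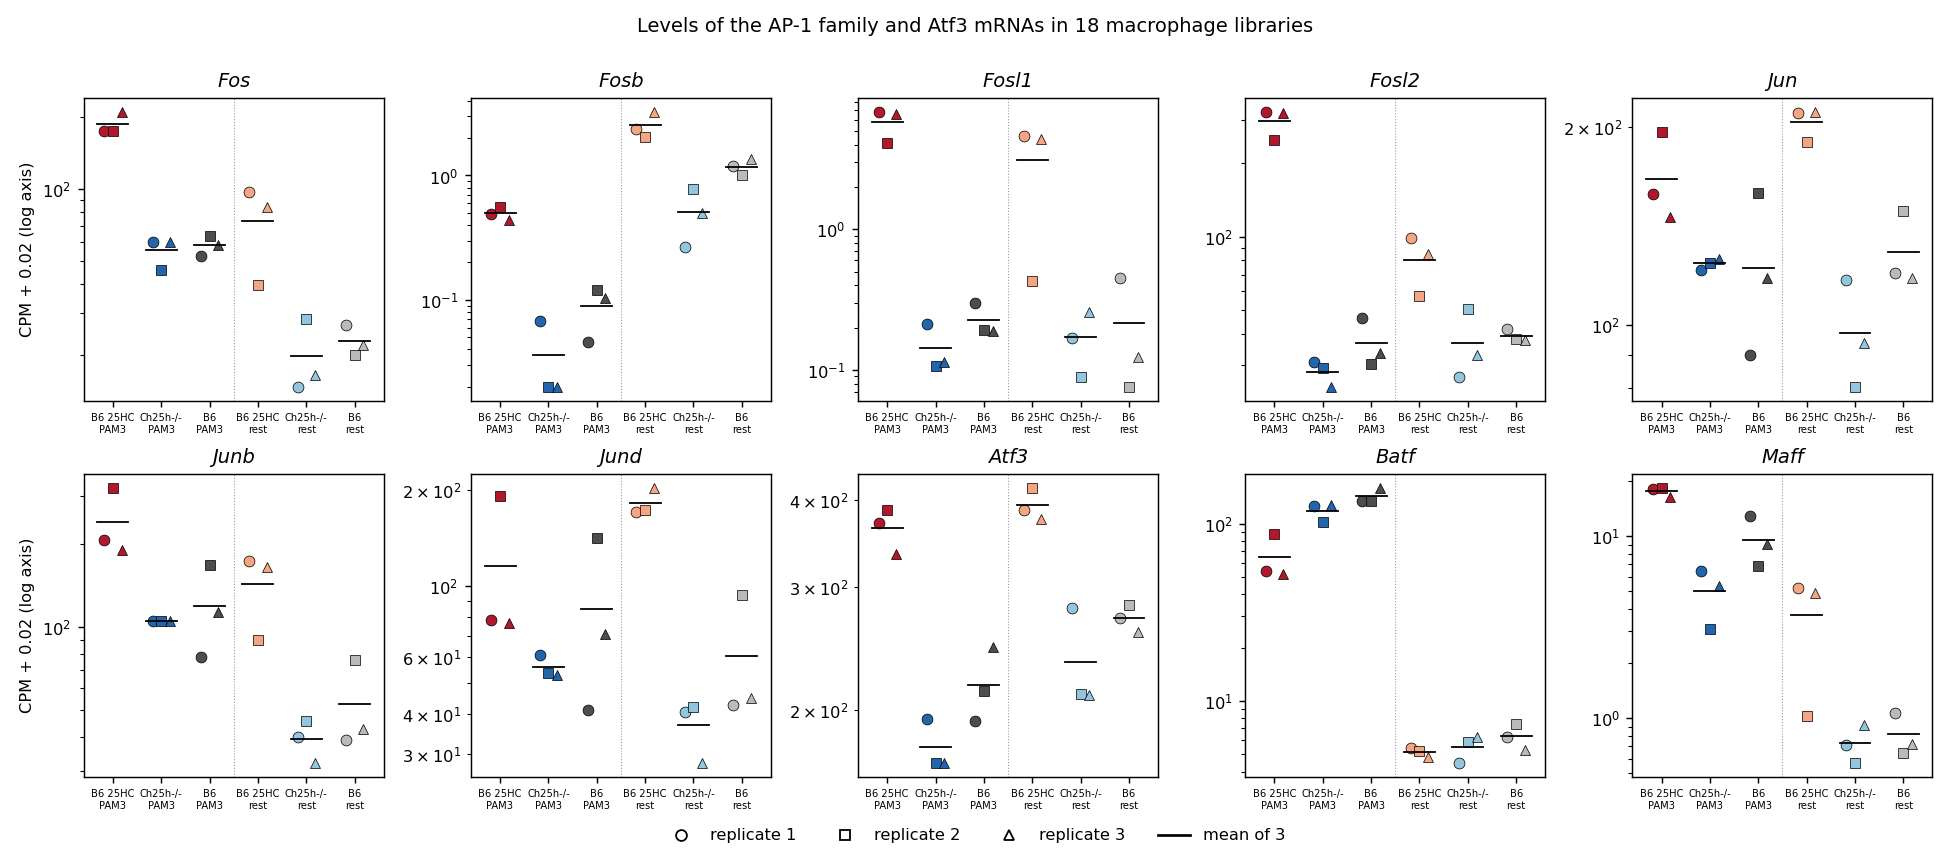
CPM plus 0.02 on log axes, 1 panel for each of the 10 members, with 6 groups of 3 libraries (PAM3 groups left of the dotted line, resting groups right of it) and a line at the mean. Fosl2 and Fosl1 stand highest in 25HC plus PAM3, and Batf is high in the PAM3 groups and low in the resting ones. Fosb is higher at rest than with PAM3 within 25HC-treated B6, untreated B6 and Ch25h-/- cells, each taken alone.

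Levels of different genes were compared only per kilobase of exon. On this scale Atf3 was the most abundant member in 25HC plus PAM3 (169 ± 12.4 CPM per kb, SD, n = 3), in 25HC alone (182 ± 9.53), in Ch25h-/- cells at rest (108 ± 18.5) and in untreated B6 cells at rest (126 ± 5.41). With PAM3 in the absence of 25HC, Batf and Atf3 led together: Batf was at 84.2 ± 10 and Atf3 at 82.0 ± 6.85 CPM per kb in Ch25h-/- cells with PAM3, and at 102 ± 10.1 and 101 ± 12.4 CPM per kb with PAM3 alone, and their libraries overlapped in both groups. Fosb and Fosl1 were the least abundant members in every group except that Maff lay between them in 25HC alone, where the libraries of all 3 overlapped in part. In 25HC plus PAM3 the order after Atf3 was Junb, Fos, Jund, Jun and Batf, and each of these overlapped its neighbour. Fosl2 followed at 30.8 ± 4.43 CPM per kb and overlapped neither neighbour.

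FOS-type transcripts made up 20.7 ± 5.03% of the summed CPM per kb of the 10 members in 25HC plus PAM3, 8.44 ± 0.632% in Ch25h-/- cells with PAM3 and 7.71 ± 1.06% with PAM3 alone. At rest the share was 8.81 ± 2.97% in 25HC alone, 6.46 ± 2.53% in Ch25h-/- cells and 5.9 ± 1.36% in untreated B6 cells (SD, n = 3 each). The libraries of 25HC plus PAM3, at 21.6%, 15.3% and 25.3%, all stood above those of PAM3 alone, at 8.92%, 6.91% and 7.31%. Batf took 8.06 ± 1.09% of the sum in 25HC plus PAM3 and 27.5 ± 4.88% with PAM3 alone, and under 3% in each resting group. Atf3 held 30.4 ± 3.26% in 25HC plus PAM3 and 27.2 ± 3.92% with PAM3 alone, against 39.6 ± 5.32% in 25HC alone and 52.1 ± 5.25% in untreated B6 cells at rest. Exact permutation tests of 3 against 3 libraries cannot go below a two-sided p of 0.10, so these shares are given without one.

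**Figure D2:**
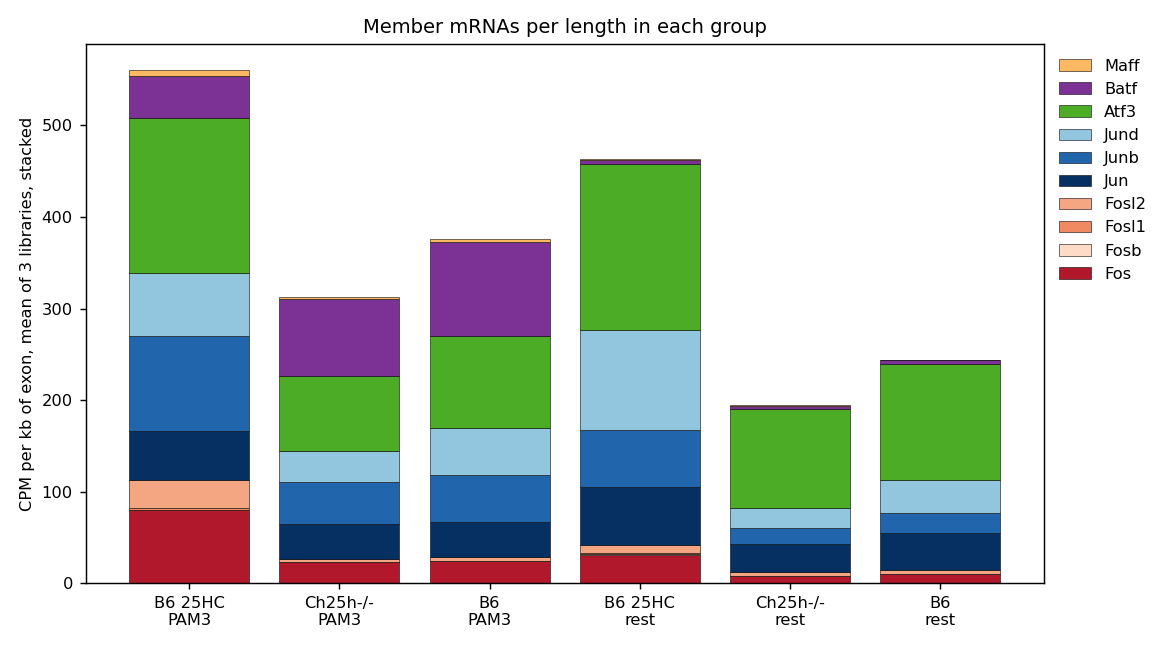
Stacked bars of the members' mean CPM per kb of exon in the 6 groups (n = 3 libraries each), PAM3 groups on the left. Atf3 fills the largest part of the bar in 4 groups, Batf matches it with PAM3 in the absence of 25HC, and the FOS-type part is widest in 25HC plus PAM3.

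In resting B6 cells, 25HC alone raised 9 of the 10 members and lowered 0 of them (adjusted p below 0.05, edgeR's quasi-likelihood test with Benjamini-Hochberg adjustment over all 12741 genes), where 14.8% of all tested genes were called higher and 26.2% in either direction. The median log2 fold change was 1.28 over the members and -0.01 over all genes. All 4 FOS-type and all 3 JUN-type genes were called higher, as were Atf3 and Maff, and Batf was the member not called.

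Fos, the prototype immediate-early gene, had 97.6, 39.5 and 84.0 CPM with 25HC alone and 26.8, 20 and 22 CPM in untreated cells. The groups did not overlap, although the 25HC library of mouse 2 lay well below the other two. The log2 fold change was 1.69 ± 0.28 (SE, n = 3 each), or 3.22-fold (edgeR adjusted p = 0.000872), and within mice 1 to 3 the log2 ratios, taken on log2 CPM with a prior count of 2, were 1.86, 0.98 and 1.93.

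Fosl1, which encodes FRA-1, had 4.55, 0.412 and 4.38 CPM with 25HC alone and 0.433, 0.0557 and 0.104 CPM in untreated cells. Mouse 2 with 25HC fell below untreated mouse 1, so the groups overlapped, although all 3 animals were higher with 25HC (log2 ratios 3.27, 2.18 and 4.89). The fitted log2 fold change was 4.20 ± 0.75 (edgeR adjusted p = 0.00133) and was 5.30 without untreated replicate 1. Fosl1 shares 1163 exonic bases with Ccdc85b on the opposite strand. Ccdc85b had 7.52, 8.02 and 10.3 CPM with 25HC alone and 3.03, 8.63 and 3.39 CPM in untreated cells, a log2 fold change of 0.77 ± 0.52 (edgeR adjusted p = 0.292), and whether counting used strand is not stated.

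Fosl2, which encodes FRA-2, had 98.5, 57.4 and 85.2 CPM with 25HC alone and 41.9, 38.2 and 37.9 CPM in untreated cells. All 3 treated libraries were above all 3 untreated ones, with mouse 2 nearest to them, and the log2 fold change was 1.03 ± 0.23 (edgeR adjusted p = 0.00513). Fosb, a paralog of Fos, was scarce, at 2.34, 2.02 and 3.22 CPM with 25HC alone and 1.17, 0.989 and 1.33 CPM in untreated cells. Its rise of 1.12 ± 0.33 on the log2 scale (edgeR adjusted p = 0.02) was lost without untreated replicate 2 (1.01, adjusted p = 0.0676), without 25HC replicate 1 (1.17, adjusted p = 0.0552) or without 25HC replicate 3 (0.90, adjusted p = 0.120).

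Among the partners, Jun had 210, 190 and 211 CPM with 25HC alone and 120, 149 and 118 CPM in untreated cells. The groups were apart and the rise was small, 0.66 ± 0.18 on the log2 scale or 1.58-fold (edgeR adjusted p = 0.0160). It was lost without untreated replicate 3 (0.60, adjusted p = 0.0662) and without 25HC replicate 1 (0.63, adjusted p = 0.0635) or 3 (0.63, adjusted p = 0.0623). Junb, whose protein is a weaker activator than JUN, had 173, 89.5 and 165 CPM with 25HC alone and 38.8, 75.7 and 42.5 CPM in untreated cells, a log2 fold change of 1.44 ± 0.32 (edgeR adjusted p = 0.00480). In mouse 2 its log2 ratio was 0.24, against 2.16 and 1.95 in mice 1 and 3, and with replicate 2 left out of every group the fold change was 2.05.

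Jund, the most constitutive JUN-type gene in many tissues, had 171, 173 and 203 CPM with 25HC alone and 42.5, 93.8 and 44.9 CPM in untreated cells. Untreated mouse 2 was the highest untreated library, and the groups did not overlap. The rise of 1.59 ± 0.43 (edgeR adjusted p = 0.0139) was lost without untreated replicate 3 (1.42, adjusted p = 0.0624) and without 25HC replicate 3 (1.5, adjusted p = 0.0523).

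Atf3 changed by less than most members but with little spread. It had 387, 416 and 376 CPM with 25HC alone and 271, 283 and 259 CPM in untreated cells, a log2 fold change of 0.54 ± 0.12 or 1.45-fold (edgeR adjusted p = 0.00592). Every treated library was above every untreated one, and the log2 ratios within mice were 0.51, 0.56 and 0.54. Maff had 5.15, 1.01 and 4.83 CPM with 25HC alone and 1.05, 0.627 and 0.706 CPM in untreated cells, and mouse 2 with 25HC lay just under untreated mouse 1. The log2 fold change of Maff was 2.24 ± 0.46 (edgeR adjusted p = 0.00328). Batf, whose protein works with IRF factors in lymphoid and myeloid cells, had 5.38, 5.21 and 4.79 CPM with 25HC alone against 6.27, 7.39 and 5.30 CPM in untreated cells, and was not called (-0.31 ± 0.20, edgeR adjusted p = 0.266).

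The 25HC-alone library of mouse 2 was the lowest of its group for 7 of the 10 members, and for 44.3% of all tested genes. It was the lowest for 9 of 16 other immediate-early genes and 14 of 18 AP-1 target genes. Without replicate 2 of every group, all 9 members called in resting cells passed the test again. Over all fits with libraries left out, 6 to 9 members were called, and Fosb, Jun and Jund were lost without 25HC replicate 3.

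With PAM3 present, 25HC raised 6 members (Fos, Fosb, Fosl1, Fosl2, Junb and Atf3) and lowered 1, Batf. Of all tested genes, 21.5% were called higher and 23.6% lower, 45.1% in all. Over the members the median log2 fold change was 0.94, and over all genes -0.04. All 4 FOS-type genes were among the rises.

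Fosl2 had 324, 249 and 322 CPM with 25HC plus PAM3 and 46.4, 30.2 and 33.4 CPM with PAM3 alone. The groups were far apart, and the difference of 3.02 ± 0.25 on the log2 scale, or 8.14-fold (edgeR adjusted p = 6.8e-07), had the smallest p of the members. Fosl1 had 6.81, 4.08 and 6.57 CPM with 25HC plus PAM3 and 0.281, 0.171 and 0.169 CPM with PAM3 alone, again without overlap. Its log2 fold change was 4.84 ± 0.72 or 28.7-fold (edgeR adjusted p = 8.2e-05), while that of the overlapping Ccdc85b was -0.64 ± 0.52 (edgeR adjusted p = 0.337).

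Fos stood at 176, 175 and 211 CPM with 25HC plus PAM3 and at 52.1, 63.2 and 58.3 CPM with PAM3 alone. Its log2 fold change of 1.69 ± 0.28 (edgeR adjusted p = 0.000191) was that of resting cells to 2 decimals, on levels that were higher in both groups. Fosb was scarce with PAM3, at 0.474, 0.542 and 0.416 CPM (27, 71 and 18 counts) with 25HC plus PAM3 and 0.0255, 0.0996 and 0.0844 CPM (1, 14 and 3 counts) with PAM3 alone. The groups did not overlap, and the log2 fold change was 2.57 ± 0.43 (edgeR adjusted p = 0.000197).

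Of the 3 JUN-type genes only Junb was called with PAM3 present. Junb had 207, 320 and 191 CPM with 25HC plus PAM3 and 78.0, 168 and 113 CPM with PAM3 alone, where mouse 2 was the highest in both groups. The rise of 1.00 ± 0.31 (edgeR adjusted p = 0.0170) was lost without PAM3-alone replicate 1 (0.77, adjusted p = 0.0698) or 3 (0.96, adjusted p = 0.0560) and without 25HC plus PAM3 replicate 2 (0.74, adjusted p = 0.0869). Jun had 158, 197 and 146 CPM with 25HC plus PAM3 and 89.9, 159 and 118 CPM with PAM3 alone, and the groups overlapped. Jun missed the threshold (0.45 ± 0.18, edgeR adjusted p = 0.0547) and passed it with the mouse as a block (0.47, edgeR adjusted p = 0.0272), without PAM3-alone replicate 2 (0.69, adjusted p = 0.00721) or replicate 2 of every group (0.55, adjusted p = 0.0059), with DESeq2 size factors (0.45, adjusted p = 0.0467) and with the DESeq2 Wald test (0.46, adjusted p = 0.0395). In each of the 3 mice it was higher with 25HC, with log2 ratios of 0.82, 0.31 and 0.31.

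Jund had 78.5, 191 and 77.0 CPM with 25HC plus PAM3 and 41.1, 142 and 71.1 CPM with PAM3 alone. The libraries of mouse 2 were the highest of both groups, the groups overlapped and the difference was not called (0.45 ± 0.42, edgeR adjusted p = 0.404). Jund shares 877 exonic bases with the antisense gene Gm11175, which had no more than 0.878 CPM in any library, and Junb shares 173 with Prdx2 on the other strand. Prdx2 was at 127, 142 and 140 CPM with 25HC plus PAM3 and 158, 184 and 228 CPM with PAM3 alone. This was a fall of 0.48 on the log2 scale (edgeR adjusted p = 0.00473), so the 2 genes moved in opposite directions in this comparison.

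Atf3 had 370, 387 and 334 CPM with 25HC plus PAM3 and 193, 213 and 246 CPM with PAM3 alone, with no overlap and a log2 fold change of 0.74 ± 0.12 or 1.67-fold (edgeR adjusted p = 0.000192). Batf went the other way, at 54.2, 87.4 and 52.0 CPM with 25HC plus PAM3 and 134, 135 and 159 CPM with PAM3 alone. All 3 libraries with 25HC lay below all 3 without it, and Batf fell by 1.14 on the log2 scale (SE 0.18, edgeR adjusted p = 0.000140). Maff had 18.2, 18.4 and 16.3 CPM with 25HC plus PAM3 and 12.9, 6.82 and 9 CPM with PAM3 alone. The groups did not overlap, yet Maff was not called (0.88 ± 0.40, edgeR adjusted p = 0.0845) except with the mouse as a block (0.97, edgeR adjusted p = 0.0229), in a fit of the compared groups only (0.91, adjusted p = 0.0117) and without replicate 2 of every group (0.65, adjusted p = 0.0125).

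**Figure D3:**
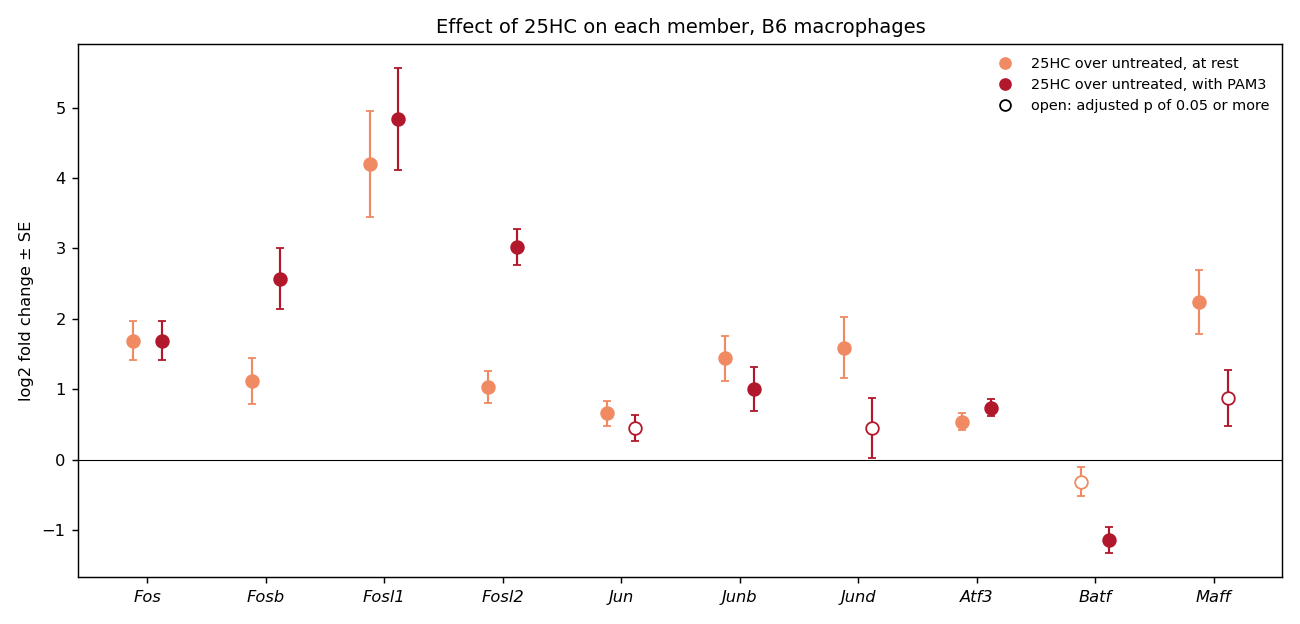
Log2 fold change ± SE of 25HC over untreated B6 macrophages for each member, at rest and with PAM3 (n = 3 libraries a group), with open symbols for an adjusted p of 0.05 or more. Fosl2 lies at 1.03 at rest and 3.02 with PAM3, Fos at 1.69 in both, and Batf is the member below 0 in both.

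**Figure D4:**
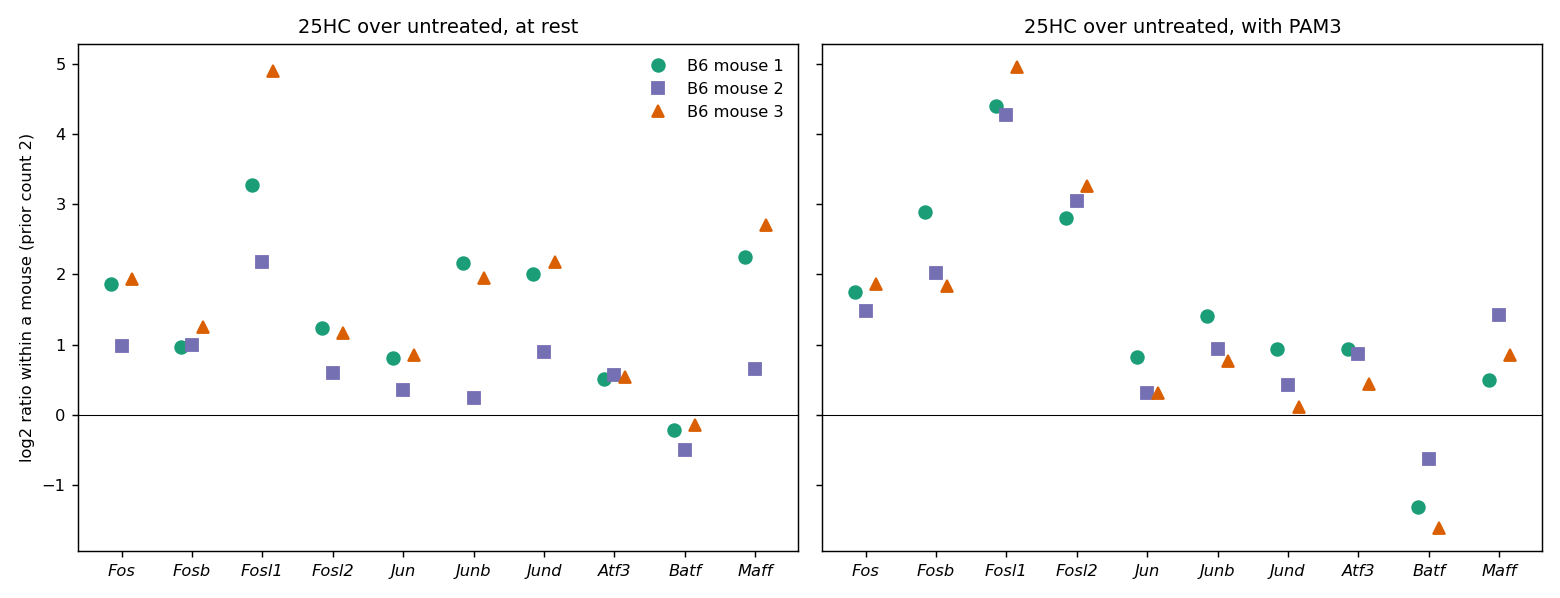
Log2 ratio of the 25HC library over the untreated library of the same mouse, at rest on the left and with PAM3 on the right, for the 3 B6 mice. At rest mouse 2 gives the lowest ratio for Fos, Fosl1, Fosl2, Jun, Junb, Jund, Batf and Maff, while with PAM3 all members except Batf are above 0 in every mouse.

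PAM3 changed the members in both directions. In untreated B6 cells and in Ch25h-/- cells Fos, Junb, Batf and Maff were called higher and Fosb and Atf3 lower. In untreated B6 cells this was 4 higher and 2 lower, where 62.1% of all genes were called, 31.3% higher and 30.8% lower, so the count is near the background. In Ch25h-/- cells it was likewise 4 and 2, beside 62% of all genes, 29.9% higher and 32.1% lower. In 25HC-treated cells 4 members were higher and 1 lower, beside 58.9% of all genes, 28.5% higher and 30.4% lower. Each PAM3 comparison has its own resting libraries, but the B6 libraries also serve in the comparisons with 25HC above.

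Batf showed the largest rise. It had 54.2, 87.4 and 52.0 CPM in 25HC plus PAM3 and 5.38, 5.21 and 4.79 CPM in 25HC alone, a log2 fold change of 3.65 ± 0.21 (edgeR adjusted p = 4.5e-09). Ch25h-/- cells had 126, 102 and 127 CPM with PAM3 and 4.46, 5.83 and 6.26 CPM at rest, a change of 4.43 ± 0.22 (edgeR adjusted p = 9.8e-10). Untreated B6 cells had 134, 135 and 159 CPM with PAM3 and 6.27, 7.39 and 5.30 CPM at rest, a change of 4.49 ± 0.21 or 22.5-fold (edgeR adjusted p = 5.5e-10). No PAM3 library overlapped a resting one.

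Maff followed. It had 18.2, 18.4 and 16.3 CPM in 25HC plus PAM3 and 5.15, 1.01 and 4.83 CPM in 25HC alone (2.26 ± 0.43, edgeR adjusted p = 0.000335). Ch25h-/- cells had 6.44, 3.09 and 5.30 CPM with PAM3 and 0.693, 0.549 and 0.894 CPM at rest (2.78 ± 0.52, edgeR adjusted p = 0.000296). Untreated B6 cells had 12.9, 6.82 and 9 CPM with PAM3 and 1.05, 0.627 and 0.706 CPM at rest (3.62 ± 0.47, edgeR adjusted p = 1.0e-05), and PAM3 and resting libraries were apart in all 3 settings.

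Fos rose by similar amounts in the 3 settings: 1.35 ± 0.28 in 25HC-treated B6 cells (edgeR adjusted p = 0.000712), 1.49 ± 0.29 in Ch25h-/- cells (adjusted p = 0.000377) and 1.34 ± 0.28 in untreated B6 cells (adjusted p = 0.000701). In Ch25h-/- cells it had 60.1, 45.7 and 60.0 CPM with PAM3 and 14.7, 28.3 and 16.5 CPM at rest, without overlap. Junb in Ch25h-/- cells was at 105 CPM in all 3 PAM3 libraries and at 40, 45.7 and 32.1 CPM at rest (1.42 ± 0.32, edgeR adjusted p = 0.00139). The Junb response of untreated B6 cells was 1.19 ± 0.32 (edgeR adjusted p = 0.00428), and in 25HC-treated cells 0.75 ± 0.31 (adjusted p = 0.0514). That last value passed without 25HC-alone replicate 1 (0.90, adjusted p = 0.0470), without 25HC plus PAM3 replicate 3 (0.89, adjusted p = 0.0433), in a fit of the compared groups only (0.76, adjusted p = 0.0354), with DESeq2 size factors (0.75, adjusted p = 0.0467) and with the DESeq2 Wald test (0.75, adjusted p = 0.0324). It was 0.65 with the mouse as a block (edgeR adjusted p = 0.0848) and 0.23 without replicate 2 of every group (adjusted p = 0.21). The log2 ratios within mice 1 to 3 were 0.25, 1.84 and 0.22, so mouse 2 stood far above the others. Prdx2, which overlaps Junb on the other strand, also rose with PAM3 in 2 settings. Its change was 0.38 ± 0.12 in Ch25h-/- cells (edgeR adjusted p = 0.0133) and 0.43 ± 0.12 in untreated B6 cells (adjusted p = 0.00644). In 25HC-treated cells Prdx2 changed by -0.02 ± 0.12 (edgeR adjusted p = 0.919). Its part in the Junb counts was not tested.

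Fosb ran opposite to Fos. With PAM3 it fell to 0.474, 0.542 and 0.416 CPM in 25HC-treated cells, against 2.34, 2.02 and 3.22 CPM in 25HC alone, a change of -2.38 ± 0.34 (edgeR adjusted p = 2.9e-05). In untreated B6 cells it fell to 0.0255, 0.0996 and 0.0844 CPM, against 1.17, 0.989 and 1.33 CPM at rest, a change of -3.83 ± 0.42 (edgeR adjusted p = 2.1e-06) that was -4.46 without replicate 2 of every group. For Ch25h-/- cells 1 count was found over the 3 PAM3 libraries and 24 over the 3 at rest. Scaled for depth, the resting level was 30.5 times the PAM3 level there, with a 95% interval of 4.97 to 1250 that covers counting error only.

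Atf3, often described as induced by Toll-like receptor ligands, was lower with PAM3 than at rest where the call was made. It had 194, 168 and 168 CPM in Ch25h-/- cells with PAM3 and 280, 211 and 210 CPM in those at rest, a change of -0.40 ± 0.12 (edgeR adjusted p = 0.0100) that was lost without the resting replicate 1 (-0.27, adjusted p = 0.0597). In untreated B6 cells it had 193, 213 and 246 CPM with PAM3 and 271, 283 and 259 CPM at rest, a change of -0.32 ± 0.12 (edgeR adjusted p = 0.0338). That call was lost without resting replicate 1 (-0.31, adjusted p = 0.0687) or 2 (-0.29, adjusted p = 0.0913), without PAM3 replicate 1 (-0.24, adjusted p = 0.138) or 2 (-0.30, adjusted p = 0.0867), without replicate 2 of every group (-0.27, adjusted p = 0.135) and in a fit of these groups only (-0.33, adjusted p = 0.0727). In 25HC-treated cells the change was -0.11 ± 0.12 (edgeR adjusted p = 0.455).

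Fosl2 was called with PAM3 in 25HC-treated cells and in neither other setting; the difference from untreated B6 cells was tested as an interaction, and that from Ch25h-/- cells was not tested. It had 324, 249 and 322 CPM in 25HC plus PAM3 and 98.5, 57.4 and 85.2 CPM in 25HC alone, a change of 1.89 ± 0.24 (edgeR adjusted p = 7.6e-06). In Ch25h-/- cells it had 30.7, 28.9 and 24.3 CPM with PAM3 and 26.7, 50.5 and 32.7 CPM at rest (-0.39 ± 0.23, edgeR adjusted p = 0.161; -0.59, adjusted p = 0.0449, without resting replicate 1). The untreated B6 levels of 46.4, 30.2 and 33.4 CPM with PAM3 overlapped those of 41.9, 38.2 and 37.9 CPM at rest (-0.10 ± 0.23, edgeR adjusted p = 0.715), and the direction turned without PAM3 replicate 2 (0.03).

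Jun, Jund and Fosl1 were not called with PAM3 in any setting. Jun changed by -0.28 ± 0.18 in 25HC-treated cells (edgeR adjusted p = 0.193), by 0.35 ± 0.18 in Ch25h-/- cells (adjusted p = 0.113) and by -0.07 ± 0.18 in untreated B6 cells (adjusted p = 0.738). Jun was called without replicate 2 of every group in the first (-0.47, adjusted p = 0.0108) and without resting replicate 1 in the second (0.49, adjusted p = 0.0449). With the mouse as a block, 2 further calls appeared in 25HC-treated cells: Fosl1 at 1.17 (edgeR adjusted p = 0.0326; 0.90 ± 0.58 and 0.198 without the block) and Jund at -0.85 (edgeR adjusted p = 0.0151; -0.65 ± 0.42 and 0.192 without it). Jund there was also called without 25HC plus PAM3 replicate 2 (-1.23, adjusted p = 0.0232) and without replicate 2 of every group (-1.27, adjusted p = 0.000602). In Ch25h-/- cells Jund (0.60 ± 0.43, edgeR adjusted p = 0.234) was called in a fit of these groups only (0.59, adjusted p = 0.0255) and without replicate 2 of every group (0.73, adjusted p = 0.0193).

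**Figure D5:**
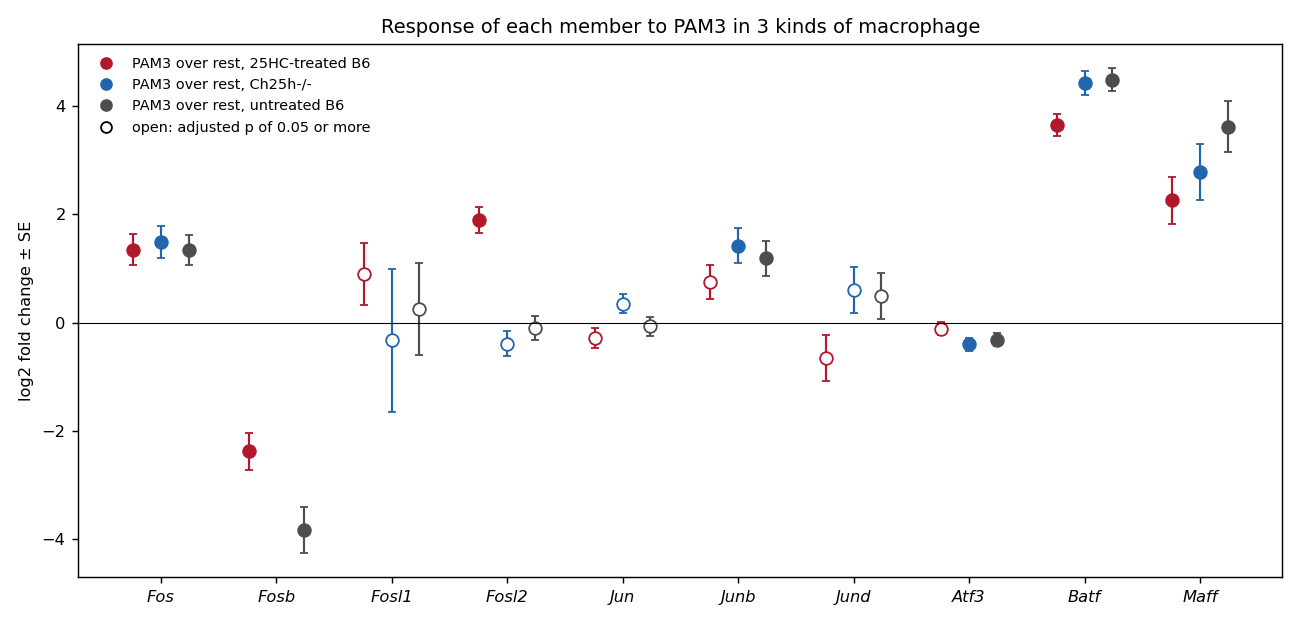
Log2 fold change ± SE of PAM3 over rest for each member in 25HC-treated B6, Ch25h-/- and untreated B6 macrophages (n = 3 libraries a group), with open symbols for an adjusted p of 0.05 or more. Fosb in Ch25h-/- cells, which rests on 1 count with PAM3, is not drawn; Fosl2 is above 0 in 25HC-treated cells, and Batf and Maff are above 0 in all 3 settings.

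The dependence of the PAM3 response on 25HC was tested as an interaction, the log2 response of 25HC-treated cells minus that of untreated B6 cells. It was called for 2 members, 1 higher and 1 lower, where 28.3% of all genes were called. For Fosl2 the difference was 1.99 ± 0.33 (edgeR adjusted p = 0.000989), between a response of 1.89 in 25HC-treated and -0.10 in untreated cells, and it passed with each library left out in turn. For Batf it was -0.84 ± 0.27 (edgeR adjusted p = 0.0297), between a response of 3.65 in 25HC-treated and 4.49 in untreated cells. That call was lost without untreated resting replicate 3 (-0.72, adjusted p = 0.0799), 25HC-alone replicate 1 (-0.80, adjusted p = 0.0650), PAM3-alone replicate 3 (-0.75, adjusted p = 0.0728) or 25HC plus PAM3 replicate 1 (-0.73, adjusted p = 0.0799) or 3 (-0.70, adjusted p = 0.0812), and with no filter on low counts (-0.77, adjusted p = 0.0510).

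Fosb had an interaction of 1.45 ± 0.53 that missed the threshold (edgeR adjusted p = 0.0536) and passed with the mouse as a block (1.43, edgeR adjusted p = 0.0415), with DESeq2 size factors (1.48, adjusted p = 0.0494), in a fit of the 4 groups only (1.45, adjusted p = 0.0341) and with the DESeq2 Wald test (1.5, adjusted p = 0.0357). Jund, at -1.15 ± 0.59 (edgeR adjusted p = 0.156), passed with the block (-1.29, edgeR adjusted p = 0.0213) and without 25HC plus PAM3 replicate 2 (-1.72, adjusted p = 0.0318). Maff, at -1.35 ± 0.61 (edgeR adjusted p = 0.106), passed without 25HC-alone replicate 2 (-1.79, adjusted p = 0.00684). Without replicate 2 of every group, Junb (-0.99, edgeR adjusted p = 0.00589; -0.44 ± 0.44 with it), Jund (-1.63, adjusted p = 0.00335) and Maff (-1.88, adjusted p = 0.00142) were called. For Fos the interaction was 0.01 ± 0.39 and for Atf3 0.21 ± 0.17 (edgeR adjusted p = 0.991 and 0.384).

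Between Ch25h-/- and B6 cells none of the 10 members was called by the edgeR test, at rest or with PAM3. At rest 2 members had an unadjusted p below 0.05, Fosb and Jun, among 704 such genes, and 1 gene was called after adjustment, which is 0.00785% of those tested. The gene called was Ch25h, the targeted gene. With the mouse number as a block 14 genes were called, and still 0 members. Fosb had 0.248, 0.754 and 0.477 CPM in Ch25h-/- cells and 1.17, 0.989 and 1.33 CPM in B6 cells, 2 groups that did not overlap (-1.28 ± 0.39, edgeR adjusted p = 0.663). Jun had 117, 80.4 and 93.9 CPM in Ch25h-/- cells and 120, 149 and 118 CPM in B6 cells, again without overlap (-0.41 ± 0.18, edgeR adjusted p = 0.890).

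With PAM3, 22 genes were called between the genotypes, 0.173% of those tested (0.0471% higher and 0.126% lower), and 0 of them were members, while 3 members had an unadjusted p below 0.05 among 1784 genes. The block on the mouse number gave 368 genes here, and again 0 members. Atf3 had 194, 168 and 168 CPM in Ch25h-/- cells with PAM3 and 193, 213 and 246 CPM in PAM3 alone, which overlapped (-0.30 ± 0.12, edgeR adjusted p = 0.276). Maff had 6.44, 3.09 and 5.30 CPM in Ch25h-/- cells and 12.9, 6.82 and 9 CPM in B6 cells, which did not overlap (-0.95 ± 0.42, edgeR adjusted p = 0.314), and it was called without replicate 2 of every group (-0.90, adjusted p = 0.0396). Fosb rested on 1 count in Ch25h-/- cells and 18 in B6 cells, a B6 level 5.47 times the Ch25h-/- one with a 95% counting interval of 0.864 to 228. The interaction of PAM3 with genotype was called for 0 of all genes and 0 members (0 members and 598 genes at an unadjusted p below 0.05), and the DESeq2 Wald test called 2 genes in all.

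Other leucine-zipper genes that can pair with or replace the members were counted in the same comparisons. The counts of this and the next gene lists stand beside the shares of all genes called, which were 26.2% with 25HC at rest, 45.1% with 25HC in the presence of PAM3 and, for PAM3 against rest, 58.9% in 25HC-treated, 62% in Ch25h-/- and 62.1% in untreated B6 cells. Of 23 tested, 12 were higher and 3 lower with 25HC at rest (median log2 fold change 0.34, against -0.01 over all genes), and 14 were higher and 3 lower with 25HC in the presence of PAM3 (median 0.53, against -0.04). At rest Atf5 rose to 107 ± 15.2 CPM with 25HC, against 26.8 ± 4.62 CPM in untreated cells, and Atf4, the central factor of the integrated stress response, to 349 ± 60.4 CPM, against 106 ± 20.3 CPM in untreated cells (edgeR adjusted p = 8.0e-06 and 4.3e-05). Jdp2, a repressor partner of JUN, rose to 36.3 ± 8.70 CPM, against 13.2 ± 2.28 CPM in untreated cells (adjusted p = 0.000134), and Maf fell to 194 ± 96.2 CPM, against 708 ± 23.7 CPM in untreated cells (adjusted p = 0.000139). In the presence of PAM3, Nfil3 was at 100 ± 4.18 CPM with 25HC and 20.3 ± 2.95 CPM without it, and Crem at 34.5 ± 5.16 CPM with it and 8.20 ± 1.02 CPM without it (edgeR adjusted p = 1.6e-05 and 3.7e-06). Batf2, a relative of Batf, fell to 2.03 ± 0.567 CPM with 25HC plus PAM3, against 8.69 ± 1.33 CPM with PAM3 alone (edgeR adjusted p = 2.9e-05).

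With PAM3 against rest, 11 of these 23 genes were higher and 3 lower in 25HC-treated cells, and 9 higher and 5 lower both in Ch25h-/- and in untreated B6 cells. The interaction with 25HC was called for 7 of the 23 higher and 6 lower, beside 12.5% of all genes higher and 15.8% lower. Crem was at 2.20 ± 0.29 and Jdp2 at -1.49 ± 0.26 (edgeR adjusted p = 0.000263 and 0.00128). Between the genotypes 0 of the 23 were called at rest and 0 with PAM3, beside 0.00785% and 0.173% of all genes.

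Of 24 MAP kinase cascade and SRF/TCF genes, which act above the members, 1 was higher and 5 lower with 25HC at rest (median -0.03), and 6 were higher and 5 lower with PAM3 present (median 0.14). Mapk14, which encodes p38α, fell to 137 ± 7.46 CPM with 25HC plus PAM3, against 290 ± 14.4 CPM with PAM3 alone (edgeR adjusted p = 1.0e-05). Mef2c, a transcription factor controlled by p38, fell to 98.1 ± 17.8 CPM with 25HC alone, against 192 ± 17.4 CPM in untreated cells (edgeR adjusted p = 0.000501). With PAM3 against rest, 6 of the 24 were higher and 4 lower in 25HC-treated cells, 8 and 10 in Ch25h-/- cells, and 8 and 6 in untreated B6 cells. These 10, 18 and 14 calls are 41.7%, 75% and 58.3% of the 24. Transcript levels say nothing here of kinase activity, which was not measured.

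Other immediate-early genes were called in 5 of 16 higher and 0 lower with 25HC at rest (median 0.25), and in 11 higher and 1 lower with PAM3 present (median 1.16). Dusp1, which encodes a MAP kinase phosphatase, rose to 86.7 ± 28.1 CPM with 25HC alone, against 21.2 ± 4.59 CPM in untreated cells (edgeR adjusted p = 1.0e-04), and Klf4 to 82.4 ± 19.9 CPM, against 23.2 ± 0.393 CPM in untreated cells (adjusted p = 1.5e-05). Nr4a3, an orphan nuclear receptor gene, was at 3.47 ± 0.749 CPM with 25HC plus PAM3 and 0.136 ± 0.0877 CPM with PAM3 alone (edgeR adjusted p = 2.6e-06), while Klf2 fell to 0.814 ± 0.252 CPM with 25HC plus PAM3, against 4.8 ± 1.31 CPM with PAM3 alone (adjusted p = 8.9e-07). PAM3 raised 7 and lowered 4 of the 16 in 25HC-treated cells, 5 and 7 in Ch25h-/- cells, and 4 and 8 in untreated B6 cells.

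Among 18 genes known from textbooks as AP-1 targets, 6 were higher and 0 lower with 25HC at rest (median 0.80), and 9 higher and 2 lower with PAM3 present (median 1.57). Plaur, the urokinase receptor gene, rose to 116 ± 50.6 CPM with 25HC alone, against 24.5 ± 4.61 CPM in untreated cells (edgeR adjusted p = 0.000895). In the presence of PAM3 it was at 246 ± 37.8 CPM with 25HC and 19.7 ± 8.27 CPM without (edgeR adjusted p = 7.0e-06). Mmp12, the macrophage elastase gene, stood at 949 ± 433 CPM with 25HC plus PAM3 and 32.7 ± 10.8 CPM with PAM3 alone (adjusted p = 4.1e-05), and Hmox1 fell to 452 ± 58.6 CPM with 25HC plus PAM3, against 846 ± 100 CPM with PAM3 alone (adjusted p = 6.3e-05). With PAM3 against rest, 13 of the 18 were higher and 3 lower in 25HC-treated cells, 9 and 6 in Ch25h-/- cells, and 10 and 5 in untreated B6 cells.

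Of 3 genes described in the literature as repressed by ATF3 in macrophages, Il6 and Il12b were higher with 25HC in the presence of PAM3, where Atf3 itself was higher. Il6 had 647, 562 and 689 CPM in 25HC plus PAM3 and 66.0, 9.41 and 21.4 CPM with PAM3 alone (4.30 ± 0.71, edgeR adjusted p = 0.000188). Il12b had 35.1, 19.1 and 21.0 CPM in 25HC plus PAM3 and 9.68, 1.77 and 3.07 CPM with PAM3 alone (2.39 ± 0.67, edgeR adjusted p = 0.0102). Neither gene's groups overlapped. Ch25h had 4.92, 3.26 and 3.86 CPM in 25HC plus PAM3 and 3.55, 1.66 and 2.14 CPM with PAM3 alone, which overlapped and was not called (0.73 ± 0.52, edgeR adjusted p = 0.264). It fell with PAM3 to 2.45 ± 0.981 CPM in untreated B6 cells, against 11.2 ± 8.67 CPM at rest (edgeR adjusted p = 0.00195), with overlap between the groups.

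Genes whose log2 CPM followed a member most closely over the 18 libraries were named as a description, since all points share the 6 groups and the scaling. Batf was followed by the receptor genes Siglece and Marco (Pearson r = 0.995 for both), and Marco averaged 314 CPM in 25HC plus PAM3, 990 in Ch25h-/- cells with PAM3 and 1210 with PAM3 alone, against 0.383, 0.313 and 0.621 CPM in the matching resting groups. Fosl2 was nearest to Hilpda (r = 0.981), a lipid droplet protein gene, which averaged 55.9 CPM in 25HC plus PAM3 and from 3.29 to 8.79 CPM in the other groups. Junb lay nearest to Cebpb (r = 0.979), Fosl1 to Errfi1 (r = 0.975), Fos to Tmem39a and Ndel1 (r = 0.973 for both) and Maff was close to Slc2a1 (r = 0.986), a glucose transporter gene. Fosb was nearest to Cdkn1c (r = 0.964), Atf3 to Mgat4b (r = 0.963), Jund to Zbed5 (r = 0.948) and Jun to Snrpc (r = 0.921). For Batf the 3 nearest genes all had r of at least 0.993, and for Jun the third had r = 0.903.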

How the data were processed

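The authors deposited raw read counts per gene for all 18 libraries, made from stranded polyadenylated RNA libraries of cultured bone-marrow-derived macrophages per the labels' protocols. Per the submitters' processing notes, the tools were FastQC 0.11.9, GSNAP, featureCounts of Subread 1.5.2 and edgeR 3.26.8, with GRCm38 (mm10). Sources used here do not state the strand setting, the treatment of multimapped reads or the annotation release, and genes that overlap on opposite strands are uncertain.

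Counts were tested with edgeR 4.0.16 (R 4.3.3): filterByExpr, TMM factors, 1 mean per group over all 18 libraries, robust quasi-likelihood F tests, two-sided, Benjamini-Hochberg adjustment over 12741 genes in each of 9 comparisons, with 0.05 as the threshold on the adjusted p. The common dispersion was 0.037 with 12 residual degrees of freedom, and SE is the absolute log2 fold change over the square root of F. The reported tests took all 18 libraries as independent, although libraries of 1 genotype with the same number share an animal. CPM used TMM-scaled totals, and log2 CPM a prior count of 2. Exon lengths came from GENCODE M21 and promoters from RefSeq. The script was tested on simulated data. The other settings were DESeq2 1.42.0, its size factors in edgeR, no filter or a filter at 1 CPM in 3 libraries, fewer groups in the fit, left-out libraries and the mouse as block. Counts of 1 to 3 are given as ratios with 95% intervals for counting error.

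The members and the 5 gene lists were chosen with earlier results of these data known. From each list the text names some of up to 4 genes per comparison with the smallest adjusted p, and for each member up to 3 genes of highest r. A few genes that this rule would name are not reported here. The labels' mouse number marks the same animal within a genotype. Same-numbered 25HC-alone and untreated libraries deviated from their group means with r = 0.448, 0.581 and 0.348 across genes, and those of 25HC plus PAM3 and PAM3 alone with r = 0.406, 0.377 and -0.162. Across genotypes only the number is shared. There r was 0.574, 0.705 and 0.327 for resting libraries, against 0.322, 0.459 and 0.0949 for stimulated ones. B6 and Ch25h-/- mice of the same number are different animals, so these values do not make them pairs. No reported genotype test was paired. A block on the number served only as an alternative fit, for both genotype comparisons.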

Additional observations from a re-analysis of the deposited data

Results flagged for a closer look

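The response to PAM3 differed between 25HC-treated and untreated B6 macrophages for 2 of the 10 members, by the edgeR interaction test. Of all tested genes, 28.3% were called in this test. For Fosl2 the log2 response was 1.99 higher in 25HC-treated cells (adjusted p = 0.000989), and the Fosl2 level was higher with PAM3 than at rest in all 3 mice with 25HC. For Batf the interaction was -0.84 (adjusted p = 0.0297), a response to PAM3 that was smaller in 25HC-treated cells but upward in every mouse of both groups. The Batf call held in 8 of 13 fits with libraries left out. It was lost with no filter on low counts (edgeR adjusted p = 0.0510).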

How the results depend on the processing

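Members' fold changes were tallied for the comparisons within a genotype, the interaction with 25HC and the genotype differences of Fosb and Jun at rest and of Atf3, Fosb and Maff with PAM3. Over the alternatives, 827 of these 901 values kept their direction and side of the threshold, 24 lost a call, 33 gained one and 17 reversed. Of the 466 for members called as reported, 442 kept their call, 24 lost it and 0 reversed. With libraries left out, tallied values that were not called crossed 0: Jund with 25HC in the presence of PAM3 (-0.13 to 1.05), in PAM3 against rest in untreated B6 cells Fosl1 (-0.32 to 1.36), Fosl2 (-0.30 to 0.03), Jun (-0.31 to 0.11) and Jund (-0.10 to 0.96), in Ch25h-/- cells Fosl1 (-0.77 to 0.09), and in the interaction with 25HC Fos (-0.29 to 0.26), Fosl1 (-0.46 to 1.21) and Jun (-0.39 to 0.03). Values below 0 for Fosl1 in untreated B6 cells were -0.02, -0.09 and -0.32, and for the Fos interaction -0.06, -0.08, -0.09, -0.12 and -0.29. The genotype differences outside the tally, 0 of which were called, crossed 0 too: at rest Fosl1 (-0.67 to 0.99), Fosl2 (-0.43 to 0.08) and Maff (-0.31 to 0.11), with PAM3 Fos (-0.14 to 0.12), Jun (-0.17 to 0.25), Junb (-0.42 to 0.14) and Jund (-0.94 to 0.02), and in the interaction with genotype Fos, Fosb, Fosl2, Junb, Jund, Atf3 and Batf, most widely Fosb (-3.62 to 0.75). The cause was not tested.

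Counts of genes called also moved with libraries left out: 1524 to 5103 (3334 as reported) with 25HC at rest, 2288 to 5110 (3611) in the interaction with 25HC, 0 to 4 (1) between the genotypes at rest and 1 to 384 (22) with PAM3, where 0 to 1 members were called. The replicate block gave 14 genes between the genotypes at rest and 368 with PAM3. The DESeq2 Wald test gave 21, 389 and, for the interaction with genotype, 2 (0 as reported). A fit of the compared groups only gave 0 and 0, and no filter 13 with PAM3. In the interaction with 25HC 1 to 5 members (2) were called with libraries left out, 4 with the block, 1 with no filter and 1 at a 2-fold minimum. The block changed no member's call other than those given with the results. List genes were tested in 1 fit only. Fosb and Fosl1 are limited by depth, with 545 and 1549 counts over all libraries.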
